A study of Mus musculus with 6 samples.

Results

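The long intergenic noncoding RNA (lincRNA) probes of a mouse gene expression array were examined in the myocardium of Clk4-cKO mice, in which deletion of the kinase gene Clk4 had been induced in heart muscle cells. The array carries 4460 probes whose names begin with A_30_P. Each is 60 bases long, each is described by a lincRNA span on mouse genome build mm9, and none has a gene symbol. Members were selected on their measured signal, by the scanner software's flag for spots well above background: a probe had to carry it in every mouse of either group, and 975 of the 4460 (21.9%) met this rule. Over the whole array 22998 of 56605 probes (40.6%) met the same rule. Of the 975 members, 856 were well above background on all 6 arrays, 84 passed through the NEXN-WT group alone and 35 through the NEXN-S437E group alone. Since passing through 1 group alone favours probes that are higher in that group, calls were counted over the 856.

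All mice in both groups were young adult males of the C57BL/6J strain and carried floxed Clk4 alleles with a tamoxifen-inducible Cre recombinase (MerCreMer) under the αMHC promoter, which is active in cardiomyocytes. NEXN (nexilin) is an actin-binding protein of the cardiac Z-disc, and CLK4 is a dual-specificity kinase. The control group of 3 mice received an AAV9 vector that carries wild-type nexilin (NEXN-WT), and the other 3 mice received AAV9 with NEXN-S437E, in which a serine is replaced by glutamate to mimic phosphorylation. Both vectors used the CMV promoter, which is not restricted to cardiomyocytes, so the comparison asks how the phosphomimetic form differs from wild-type nexilin in hearts that all carry the induced Clk4 deletion, and it holds no Clk4-intact or untreated heart.

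LincRNAs are transcripts that lie between protein-coding genes and are not translated. Many are capped, spliced and polyadenylated by the same machinery as mRNAs. They are on average less abundant and more restricted to single tissues than mRNAs, and several act in the nucleus, where they bind chromatin regulators or arise as by-products of active enhancers and promoters. In the heart, well studied cases regulate chromatin remodelling under pressure overload and the commitment of cardiac progenitors.

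The sequences of the probes on which the results turn are given here, 5′ to 3′ and in the strand of the RNA they detect, because the deposited files name these transcripts by position only. The first pair are abutting probes of 1 locus on chromosome 9, A_30_P01020518 in the span chr9:78104935-78116974 and A_30_P01018914 in chr9:78107225-78118850, both on the forward strand of mm9. A_30_P01021268 lies in chr13:53097579-53113554 on the forward strand and A_30_P01032192 in chr8:122843176-122844282 on the forward strand. The probes that fell were A_30_P01026271 in chr11:50994911-51050704, forward strand, and A_30_P01028194 in chr10:62267317-62269871, reverse strand.
A_30_P01020518: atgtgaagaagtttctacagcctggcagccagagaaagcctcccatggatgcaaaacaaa
A_30_P01018914: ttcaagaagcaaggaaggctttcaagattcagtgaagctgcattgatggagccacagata
A_30_P01021268: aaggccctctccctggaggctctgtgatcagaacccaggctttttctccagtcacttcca
A_30_P01032192: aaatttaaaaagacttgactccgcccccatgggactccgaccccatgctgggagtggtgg
A_30_P01026271: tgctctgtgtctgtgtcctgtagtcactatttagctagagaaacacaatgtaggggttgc
A_30_P01028194: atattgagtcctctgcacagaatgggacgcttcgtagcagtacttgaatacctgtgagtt

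The lincRNA probes were dimmer than the rest of the array. Between 22.3% and 26.6% of their spots were well above background on an array, against 41.9% to 47.8% of all spots, and 3105 of the 4460 probes were well above background on no array. Values are given on the deposited normalized log2 scale. On it the 856 members had a median of 6.38 over the 6 arrays, against 7.97 for the 20254 other probes that were well above background on all 6. At the edge of the rule, members that passed through 1 group had a median of 4.34, and the 131 probes just outside it, well above background on 2 of 3 arrays of a group, had a median of 3.91. No spot was saturated.

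The array holds 3240 different lincRNA spans, of which 832 carry probes on both strands. In 149 of these 832 only the forward strand gave a member, in 159 only the reverse strand, in 69 both strands, and in 455 neither. Forward and reverse strands were thus represented alike, at 26.2% and 27.4%. The share of probes that were members was lowest on chromosome X (26 of 176, 14.8%) and highest on chromosome 14 (66 of 186, 35.5%), where probes of 1 span are not independent of each other. Spans of members ran from 104 bases to 508115 bases, with a median of 12951 bases.

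As a set, the lincRNA probes were higher in NEXN-S437E than in NEXN-WT hearts by a small amount. The median log2 difference of the 856 members was 0.21, with quartiles of -0.01 and 0.38, against a median of 0.04 for all 21110 probes on all 6 arrays. A difference above 0 was found for 626 of the 856 (73.1%), against 54.9% of all 21110 probes. With an unadjusted limma p under 0.05 and no fold threshold, 161 members (18.8%) were higher, where the background over all probes was 7.58%, and 20 (2.34%) were lower, where the background was 6.94%. The groups did not overlap, with NEXN-S437E above NEXN-WT, for 234 members (27.3%, background 13.8%), and did not overlap in the other direction for 34 (3.97%, background 10.8%). These shares are descriptions of probes on the same 6 arrays, and no test was made of the set as a whole.

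The size of this shift differed between arrays. Measured as the median deviation of the 856 members from each probe's own median over the arrays, NEXN-WT replicate 1 lay at -0.26, NEXN-WT replicates 2 and 3 at -0.04 and -0.05, and the 3 NEXN-S437E arrays at 0.06, 0.06 and 0.07. All 3 NEXN-WT arrays were thus below all 3 NEXN-S437E arrays, and NEXN-WT replicate 1 was the farthest from 0. The other probes deviated by between -0.03 and 0.01 on every array. Without NEXN-WT replicate 1 the median difference of the members was 0.13 against 0.01 for all probes, and 116 members were higher and 15 lower at an unadjusted p under 0.05, or 13.6% and 1.75%, against 5.61% and 6.01% of all probes. Without NEXN-S437E replicate 2 or 3, 90 and 91 members were higher at that p, or 10.5% and 10.6%, against 3.96% and 4.13% of all probes. With normexp background correction and an offset of 50 in place of the deposited values the median was 0.11 against 0.02 for all probes, and within slide row 1, which held all NEXN-WT arrays and NEXN-S437E replicate 1, it was 0.21 against 0.04.

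**Figure D1:**
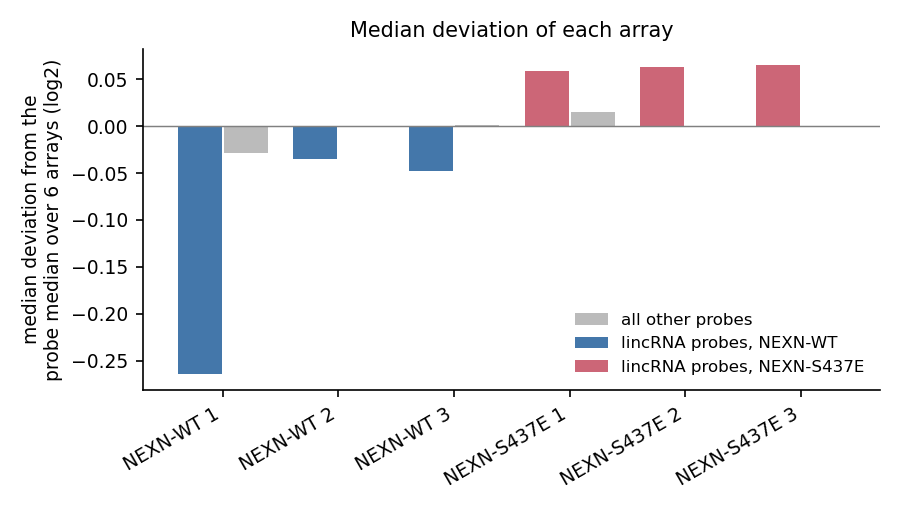
Bars give, for each of the 6 arrays, the median deviation (log2) from each probe's median over the 6 arrays, coloured for the 856 lincRNA probes and grey for the 20254 other probes well above background on all 6 arrays. The lincRNA bars run from -0.26 on NEXN-WT replicate 1 to 0.07 on NEXN-S437E replicate 3, and the grey bars stay between -0.03 and 0.01.

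The shift was present at most signal levels. Among the 361 members with a mean of up to 6 the median difference was 0.23, against 0.06 for other probes of that brightness, and among the 89 members between 8 and 9 it was 0.28 against 0.02. It was absent among the 24 members between 11 and 12, at -0.02 against 0.04. Base composition moved with it. Members with a GC content of up to 35% had a median difference of 0.01, those between 50% and 55% one of 0.28, and those above 60% one of 0.28, and the other probes rose in the same order, from -0.03 through 0.09 to 0.27. The highest class held 61 members and 166 other probes, so that at this GC content lincRNA probes and other probes differed by 0.01. The part of GC content and of signal level in the shift was not tested. Other probes of poorly annotated transcripts also lay above 0, with a median of 0.14 for 1133 probes of RIKEN or Gm-numbered symbols and 0.07 for 1340 other probes without a gene symbol, against 0.02 for the 17781 probes of other gene symbols.

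**Figure D2:**
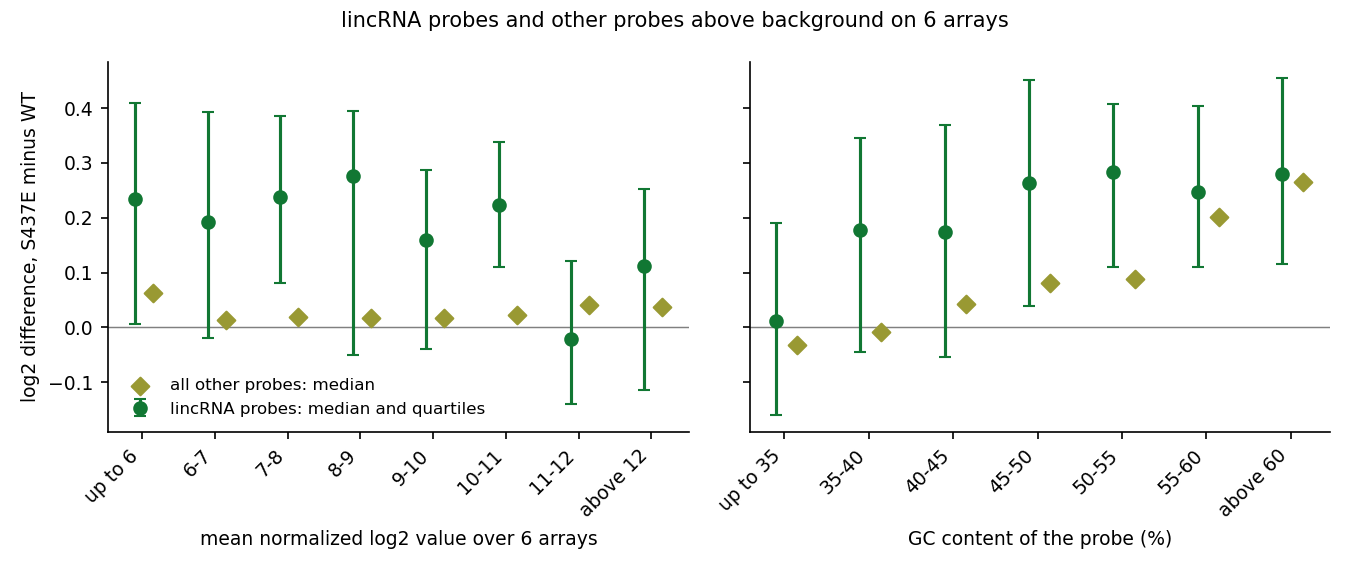
Log2 differences (NEXN-S437E minus NEXN-WT) by mean normalized log2 value (left) and by GC content of the probe in percent (right). Circles with bars are the median and quartiles of the lincRNA probes and diamonds the median of all other probes. The circles lie above the diamonds in most classes, except between 11 and 12 (left), and the 2 sets meet above 60% GC (right).

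Few members changed by 2-fold or more. At a 2-fold difference with an unadjusted limma p under 0.05, 4 of the 856 members were higher (0.467%, background 0.422%) and 2 were lower (0.234%, background 1.28%). The count of higher probes was close to the background, and the count of lower probes was below it. With the methods' t-test in place of limma, 3 were higher and 2 lower, without A_30_P01032192. No member passed an adjusted p of 0.05 (limma, Benjamini-Hochberg over 22998 probes), where the background was 0.0568%, though 181 had an unadjusted p under 0.05. The exact two-sided permutation test over 6 arrays, which cannot give a p below 0.1, gave 0.1 for each of the 6 called members. With normexp background correction and an offset of 50, which together compress the folds of dim probes, none of the 6 reached 2-fold, with differences of 0.87 and 0.98 for the chromosome 9 pair, though each kept an unadjusted p under 0.05. Without NEXN-WT replicate 1 only 2 of the 6 were called.

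The largest increase was at the chromosome 9 locus. A_30_P01020518 had log2 values of 5.67, 5.67 and 6.10 on the NEXN-WT arrays and of 7.11, 7.56 and 7.21 on the NEXN-S437E arrays. Every NEXN-S437E array was at least 1 log2 unit above every NEXN-WT array, and the difference was 1.48 ± 0.19 (SE, n = 3 and 3, limma adjusted p = 0.0538). A_30_P01018914, whose 60 bases begin where those of the first probe end, had 6.71, 6.38 and 6.83 in NEXN-WT and 7.64, 8.33 and 8.06 in NEXN-S437E. It did not overlap between the groups either, with a difference of 1.37 ± 0.21 (limma adjusted p = 0.0963). Since the probes abut, they can read 1 transcript and are not independent measurements.

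This lincRNA locus lies within the glutathione S-transferase alpha cluster, whose enzymes conjugate glutathione to electrophilic compounds and lipid peroxidation products. On the array, probes of Gsta4 and Gm10639 flank it, and in RefSeq (GRCm38.p6) the genes between these are Gm3126, Gsta1, Dppa5b, Gm3776 and Dppa5c in that order, Gsta1 and Gm3776 among them being protein-coding. Gm10639, 36.3 kb from the span of A_30_P01020518 and on the same strand, had 6.15, 5.87 and 6.27 in NEXN-WT and 7.12, 8.05 and 7.70 in NEXN-S437E, a difference of 1.53 ± 0.25 (limma adjusted p = 0.101). Gsta4 differed by 0.58 ± 0.18 (unadjusted p = 0.0149) and the 2 probes of Gsta3, a member of the family that lies on chromosome 1 outside this cluster, by 0.68 and 0.69. These 4 gene probes were higher in each NEXN-S437E array than in any NEXN-WT array. The Gsta2 probe met the signal rule through 1 group alone, so its values of 4.34, 4.26 and 3.90 in NEXN-WT and 4.62, 5.90 and 5.52 in NEXN-S437E are given without a test. Joined end to end, the 2 lincRNA probe sequences hold a reading frame that crosses their junction and ends in the stop codon tga. Their lincRNA name is that of the array annotation, and whether they read a coding mRNA of this cluster was not tested. The members of this gene family are close copies of each other, and no genome of the build was used here. Which transcript the lincRNA probes read was thus not determined.

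**Figure D3:**
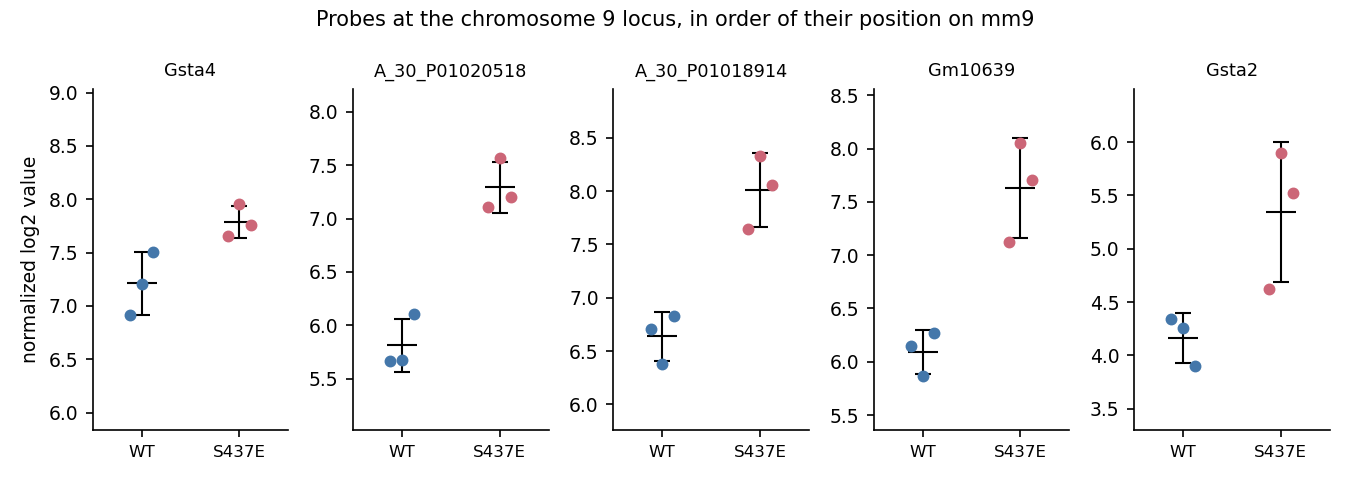
Normalized log2 values of 5 probes at the chromosome 9 locus, from Gsta4 to Gsta2 in the order of their position on mm9, for the 3 NEXN-WT (blue) and 3 NEXN-S437E (red) arrays, with mean and SD as bars. All panels span the same log2 range, and in each the red points lie above the blue ones, by 1.48 and 1.37 in the means of the lincRNA probes.

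A_30_P01021268 had 4.82, 5.33 and 5.35 in NEXN-WT and 6.07, 6.21 and 6.50 in NEXN-S437E, without overlap, a difference of 1.09 ± 0.20 (limma adjusted p = 0.126). The nearest gene probes were those of Nfil3, a basic leucine zipper repressor that takes part in circadian and immune gene regulation, 34.9 kb away on the opposite strand. The 2 Nfil3 probes differed by -0.24 and -0.32 and passed no threshold. A_30_P01032192 had 4.70, 5.46 and 5.90 in NEXN-WT and 6.67, 6.22 and 6.18 in NEXN-S437E. Its NEXN-WT values spread over more than 1 log2 unit, with replicate 1 lowest, and its difference was 1.00 ± 0.31 with all arrays (limma adjusted p = 0.213) and 0.68 without NEXN-WT replicate 1. The nearest gene probe, of Gse1, was 33.8 kb away and did not meet the signal rule.

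Of the probes that fell, A_30_P01026271 had 7.88, 6.69 and 6.42 in NEXN-WT and 5.69, 5.86 and 5.26 in NEXN-S437E, a difference of -1.40 ± 0.38 (limma adjusted p = 0.180). NEXN-WT replicate 1 was the highest by more than 1 log2 unit, and without it the difference was -0.95. With the slide row as a block, the difference was -1.31 for this probe and -0.75 for A_30_P01028194. These differences rest on the 1 NEXN-S437E array of slide row 1, since row 2 held no NEXN-WT array, so only their size is given. The span of A_30_P01026271 lies 34.9 kb from the nearest probe of Clk4, on the same strand. Clk4 is the gene whose deletion was induced in the cardiomyocytes of all 6 mice. The same span lies 16.5 kb from a probe of BC049762 on the opposite strand. The Clk4 probe that met the signal rule had values from 8.47 to 8.89 in NEXN-WT and up to 8.95 in NEXN-S437E, well above background on all 6 arrays of whole myocardium, which also holds cells without Cre, and whether its bases lie in the deleted exons was not determined. This Clk4 probe differed by 0.09 ± 0.18 and the BC049762 probe by 0.29 ± 0.20, neither past a threshold. A_30_P01028194 had 5.88, 5.19 and 5.75 in NEXN-WT and 4.85, 4.09 and 4.78 in NEXN-S437E, a difference of -1.03 ± 0.26 (limma adjusted p = 0.172). It lies 4.58 kb from a probe of Tet1, which encodes a methylcytosine dioxygenase that starts DNA demethylation, on the same strand. That Tet1 probe met the signal rule through NEXN-WT alone, as did a second Tet1 probe 6.17 kb away, so the differences of -1.41 ± 0.42 and -0.16 ± 0.31 are given without a test.

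**Figure D4:**
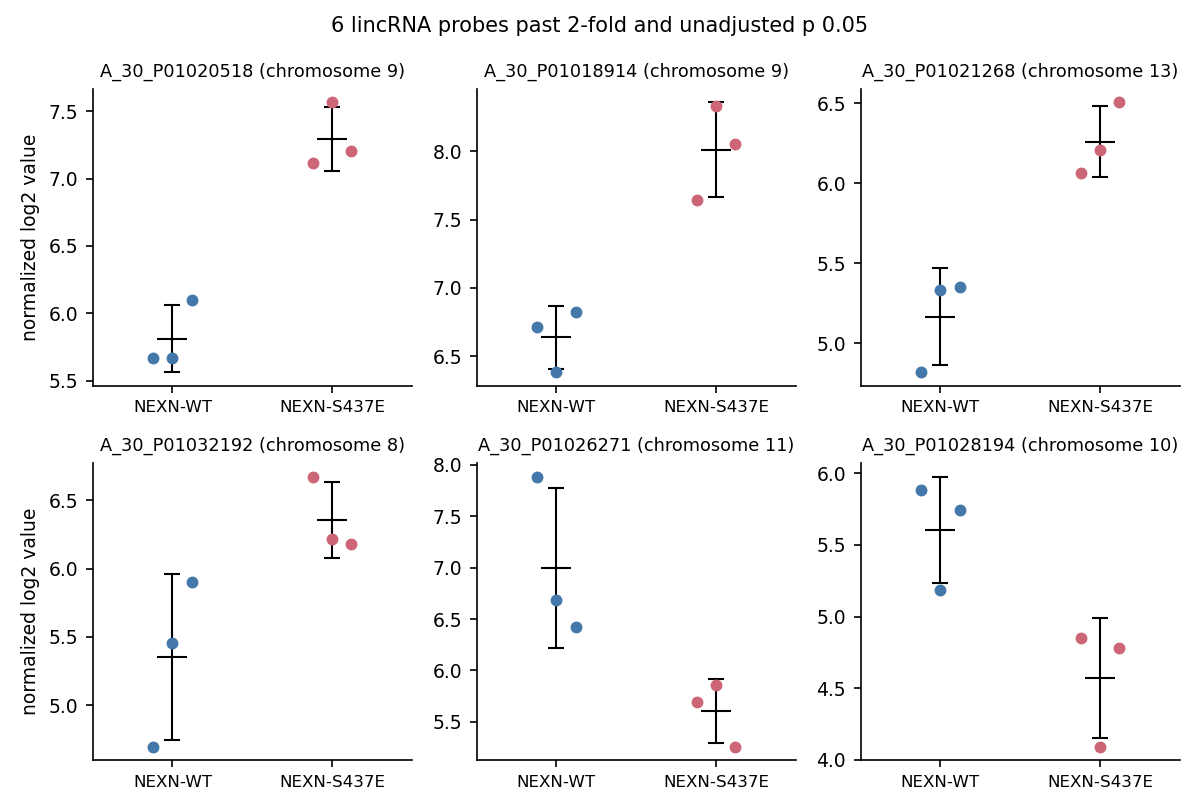
Normalized log2 values on the 3 NEXN-WT (blue) and 3 NEXN-S437E (red) arrays of the 6 lincRNA probes past a 2-fold difference and an unadjusted p of 0.05, with mean and SD as bars and an axis of its own for each probe. The groups do not overlap in any panel, and NEXN-WT replicate 1 lies apart for A_30_P01026271 at 7.88.

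Among the 119 members that passed through 1 group alone, differences ran from -1.88 to 0.54 for the 84 NEXN-WT-only and from -0.22 to 1.04 for the 35 NEXN-S437E-only members, so that some were near 0 or against the passing group. Of the 84, 6 were lower at the 2-fold and unadjusted p thresholds (7.14%, against 12.8% of all 1521 probes that passed through NEXN-WT alone), and of the 35, 1 was higher (2.86%, against 13.6% of all 367 that passed through NEXN-S437E alone). The rule favours these directions, so the shares are descriptions. In all, 7 of the 119 were well above background on no array of the other group, so that their differences are bounds. The members with the highest bound in each direction are shown, without a p since the rule used the same values. A_30_P01020627 lies on chromosome 3, on the strand of Nes, the gene of the intermediate filament protein nestin, 9.34 kb from its probe. It had 6.70, 5.49 and 5.07 in NEXN-WT and was not well above background in NEXN-S437E, where its measured mean was 3.89. This made it at least 3.18-fold lower in NEXN-S437E on the deposited values, with NEXN-WT replicate 1 the highest array, and the Nes probe itself differed by -0.04 ± 0.20. A_30_P01024751 lies in chr14:22267795-22319045 on the reverse strand, and was at least 2.06-fold higher in NEXN-S437E, with 4.60, 5.01 and 4.82 there against a NEXN-WT mean of 3.76 that was not well above background. With normexp and an offset of 50 the log2 differences of these probes were -0.64 and 0.25, smaller than the bounds. A second member of the same span, A_30_P01019013, differed by 0.66 ± 0.24 (unadjusted p = 0.029). The nearest tested gene probe was that of Kat6b, a histone acetyltransferase, 20.4 kb away on the opposite strand, at -0.66 ± 0.34, which met the signal rule through NEXN-WT alone. The remaining bounds were 1.52-fold or less, led by A_30_P01032470 and A_30_P01025988 on another chromosome, whose sequences are not shown. In the span of A_30_P01032470 and on its strand, A_30_P01017774 went the other way, at 0.51 ± 0.17 without overlap (unadjusted p = 0.0181).
A_30_P01020627: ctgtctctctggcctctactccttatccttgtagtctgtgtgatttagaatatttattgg
A_30_P01024751: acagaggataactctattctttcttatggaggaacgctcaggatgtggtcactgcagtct
A_30_P01019013: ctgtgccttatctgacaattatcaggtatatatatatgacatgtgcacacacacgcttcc

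Loci read by more than 1 member allowed a look at whether neighbouring probes moved alike. Joining overlapping spans on 1 strand placed the 856 members in 736 loci, of which 642 had 1 member and 94 had between 2 and 4, with 214 members in all. In 53 of the 94 loci all members were above 0, in 18 all were below 0, and the other 23 held both signs. These counts are to be read beside the 73.1% of all members that were above 0, as are the sign counts of pairs below. In the 75 loci with 2 members the median gap between the 2 differences was 0.15, and whether this is smaller than between members of different loci was not tested. Probes of 1 locus share their RNA sample and may share a transcript, so they are not replicates.

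**Figure D5:**
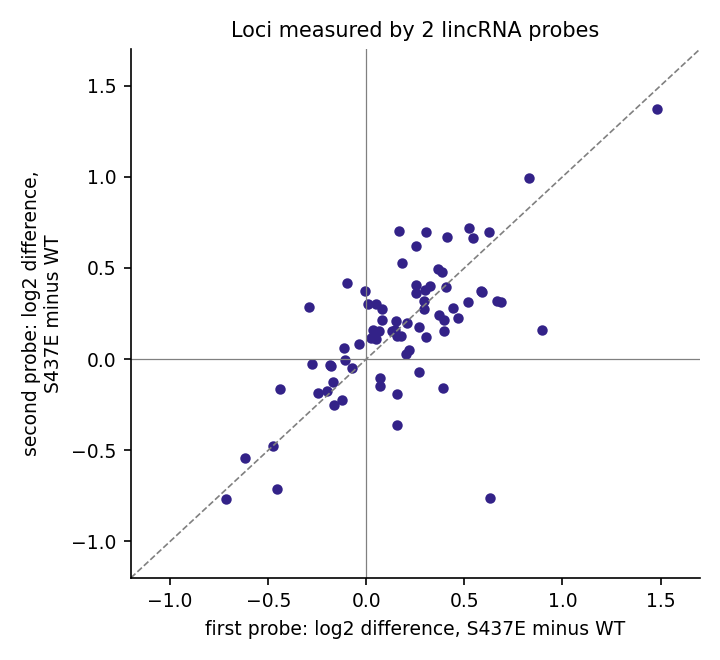
Each point is 1 of 75 loci with 2 lincRNA probes on 1 strand, with the log2 difference (NEXN-S437E minus NEXN-WT) of the probe with the lower position, where positions are given for both, on the x axis and of the other on the y axis. The dashed line marks equal values, and the chromosome 9 locus is the point at the upper right, at 1.48 and 1.37.

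In 9 loci every member had an unadjusted p under 0.05, and these were chosen for description after their values were seen. With each array left out in turn, 2 of the 9, both on chromosome 9, met this in all 6 fits. One is the chromosome 9 locus above. On chromosome 10, A_30_P01019232 had 5.88, 5.90 and 6.62 in NEXN-WT and 7.06, 7.15 and 7.18 in NEXN-S437E (difference 0.99 ± 0.22), and its neighbour A_30_P01031350 differed by 0.83 ± 0.32, with overlap between the groups. The nearest gene probe, of Ccdc6, lies 13.7 kb from this locus on the same strand and went the other way, at -0.35 ± 0.13 (unadjusted p = 0.029). In chr9:30529709-30589042 on the reverse strand, A_30_P01032524 had 9.46, 10.02 and 10.02 in NEXN-WT and 10.47, 10.50 and 10.41 in NEXN-S437E, and A_30_P01023224 had 8.87, 9.51 and 9.52 against a lowest value of 9.89. Both were higher on every NEXN-S437E array, by 0.62 ± 0.18 and 0.70 ± 0.20, with NEXN-WT replicate 1 lowest, and no gene probe lay within 50 kb. A locus with 3 members in chr7:16584852-16657252 rose by between 0.46 and 0.52, without overlap for any of the 3. Loci near Cntn1 (0.52 and 0.72), Pum3 (0.67 and 0.32) and Smad7 (0.54 and 0.66) were also higher. The nearest Pum3 and Smad7 probes differed by -0.02 and -0.11, and those of Cntn1 did not meet the signal rule.

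Loci that fell together were fewer. In chr6:42659063-42660071 on the reverse strand, A_30_P01032674 had 5.88, 5.68 and 5.42 in NEXN-WT and 5.10, 4.99 and 4.75 in NEXN-S437E (difference -0.72 ± 0.17), and A_30_P01026599 differed by -0.77 ± 0.32 with overlap. One probe of Tcaf1, 33.8 kb away on the same strand, was tested and differed by -0.36 ± 0.27. In chr10:83181374-83249774 on the forward strand, A_30_P01024970 had 7.34, 6.79 and 6.78 in NEXN-WT and 6.32, 6.47 and 6.27 in NEXN-S437E (difference -0.62 ± 0.18), and A_30_P01032460 fell by 0.54. Both probes were lower on every NEXN-S437E array. The widest disagreement within a locus was in chr9:14460976-14488051 on the forward strand, where A_30_P01032901 rose by 0.63 ± 0.13 and A_30_P01020075 stood at -0.76 ± 0.40, its lowest NEXN-WT value of 6.20 lying below the 6.27, 6.48 and 6.35 of NEXN-S437E.

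The sequences of 4 of these loci follow, as cases where every probe of a locus passed an unadjusted p of 0.05 in 1 direction: the reverse-strand pair on chromosome 9, the Ccdc6 locus, the chromosome 7 locus and the falling chromosome 10 locus. Capitals mark AATAAA, the canonical polyadenylation signal, searched on the strand of the RNA only. It was found in 47 of the 856 members (5.49%), in 3.99% of all 4460 lincRNA probes and in 11.9% of all probes on all 6 arrays. Members that hold it had a median difference of 0.14 and the others one of 0.21.
A_30_P01032524: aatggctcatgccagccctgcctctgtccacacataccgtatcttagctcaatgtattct
A_30_P01023224: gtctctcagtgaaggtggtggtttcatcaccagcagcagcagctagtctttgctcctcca
A_30_P01019232: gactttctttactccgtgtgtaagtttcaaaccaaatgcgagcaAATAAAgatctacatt
A_30_P01031350: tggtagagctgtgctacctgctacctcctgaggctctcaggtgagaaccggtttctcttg
A_30_P01019086: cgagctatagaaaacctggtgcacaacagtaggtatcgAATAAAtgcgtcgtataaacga
A_30_P01020478: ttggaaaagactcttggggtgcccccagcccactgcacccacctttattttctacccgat
A_30_P01025354: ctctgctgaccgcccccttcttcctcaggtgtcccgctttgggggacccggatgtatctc
A_30_P01024970: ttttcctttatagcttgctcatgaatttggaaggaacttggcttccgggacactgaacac
A_30_P01032460: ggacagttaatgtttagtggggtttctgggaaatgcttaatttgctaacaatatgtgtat

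Transcription from opposite strands of 1 span was compared next. In 56 spans members on all 6 arrays lay on both strands, with a median difference of 0.27 on the forward and 0.18 on the reverse strand. Both strands were above 0 in 35 of these spans, both below 0 in 4, and the signs differed in the rest. The correlation of the forward and reverse differences over the 56 spans was r = 0.29, given as a description since both strands come from the same 6 samples. Some probes are themselves reverse complements of each other over most of their length. Such a partner among the lincRNA probes was shared, over at least 20 bases, by 87 members, of which 59 had a partner that was no member. A_30_P01021685 is an example. Its first 59 bases are the reverse complement of a probe that did not meet the signal rule, while A_30_P01021685 itself had 6.55, 6.91 and 6.70 in NEXN-WT and 7.24, 7.32 and 7.35 in NEXN-S437E (difference 0.58 ± 0.14, unadjusted p = 0.004). In 14 pairs both partners were members, and in 11 of the 14 both were above 0. The pair on chromosome 6 is shown, A_30_P01022038 at 0.35 ± 0.16 and A_30_P01025627 at 0.44 ± 0.25, neither past an unadjusted p of 0.05. Capitals mark the bases shared with the partner probe.
A_30_P01021685: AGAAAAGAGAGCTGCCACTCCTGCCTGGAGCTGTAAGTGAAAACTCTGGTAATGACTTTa
A_30_P01022038: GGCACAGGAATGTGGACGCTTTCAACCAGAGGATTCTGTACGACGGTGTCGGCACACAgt
A_30_P01025627: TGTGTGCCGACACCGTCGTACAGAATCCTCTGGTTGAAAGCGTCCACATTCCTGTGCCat

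Named genes were then set beside the members. A probe with a gene symbol, which includes noncoding genes such as H19, Tug1 and Neat1, lay inside the span of 263 of the 975 members, on the same strand for 160 and on the opposite strand alone for 103, and 529 members had one within 10 kb. For 61 members on all 6 arrays a gene probe on the same strand inside the span was itself tested, and the signs of the lincRNA and gene differences matched in 40 of the 61 (r = 0.32 across these, given as a description). The median difference was 0.11 for these 61 lincRNA probes and 0.03 for the gene probes beside them. Examples on both sides of this comparison were A_30_P01026185 at 0.70 beside Tmem181a at 0.08, and A_30_P01029295 at 0.79 beside Dynlt1c at -0.21. For the 624 members on all 6 arrays with no gene probe in their span the median was 0.20.

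Sequence also tied some members to named genes. Apart from 2 members that shared bases with more than 10 other probes each, 33 members shared at least 20 bases with a gene probe, 14 on the same strand and 20 as the reverse complement. A_30_P01022383 shares 46 bases on the same strand with a probe of Tusc3, a subunit of the oligosaccharyltransferase complex, at -0.04 and 0.02. On the reverse strand, A_30_P01024823 is complementary over 54 bases to a probe of the ribosomal protein gene Rpl39. It had values from 4.91 to 5.58 in NEXN-WT and 5.81, 5.97 and 5.90 in NEXN-S437E, a difference of 0.60 ± 0.19 (unadjusted p = 0.0156), while the Rpl39 probe differed by -0.13. A_30_P01023584, on chromosome 6, is complementary over 57 bases to a probe of Atp6v0c on chromosome 17, at -0.10 and -0.08. Atp6v0c encodes a proton channel subunit of the vacuolar ATPase. Capitals mark the shared bases.
A_30_P01024823: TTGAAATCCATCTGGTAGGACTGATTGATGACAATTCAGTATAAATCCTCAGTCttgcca
Rpl39 probe: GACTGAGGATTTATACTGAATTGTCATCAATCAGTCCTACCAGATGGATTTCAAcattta

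All 60 bases of 10 members were found in a RefSeq promoter window (GRCm38.p6, 250 bases before to 50 after a gene start). Of these, A_30_P01018151 lies upstream of Dcun1d1 on the opposite strand, A_30_P01027058 upstream of AI839979 on the opposite strand, and A_30_P01030168 across the start of Osbpl3 on its own strand. Their differences were 0.16 ± 0.13, 0.15 ± 0.16 and -0.01 ± 0.13, and none of the 10 passed an unadjusted p of 0.05. A further member, A_30_P01032185, overlaps the hairpin of Mir8110 and differed by 0.31 (unadjusted p = 0.0846).

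Known long noncoding RNAs gave a frame for these values. Of a list of 42, 33 had a probe on the array and 21 met the signal rule, with 26 gene probes. None passed an adjusted p of 0.05 (limma). Of the 25 probes on all 6 arrays, 1 was higher and 1 lower at an unadjusted p under 0.05, where 7.58% and 6.94% of all probes were. Mhrt, a cardiac transcript antisense to Myh7 that binds the chromatin remodeller BRG1, had 6.45, 7.18 and 7.03 in NEXN-WT and 7.25, 8.01 and 8.01 in NEXN-S437E, a difference of 0.87 ± 0.27 (unadjusted p = 0.0143). Dnm3os, the host transcript of miR-199a and miR-214, had 8.13, 6.51 and 5.86 in NEXN-WT and 5.70, 5.04 and 5.62 in NEXN-S437E, a difference of -1.38 ± 0.53 (unadjusted p = 0.0347). NEXN-WT replicate 1 was highest, and without it the difference was -0.73. The Pvt1 probe, which met the signal rule through 1 group alone, differed by -0.76 ± 0.23 and is given without a test. The median difference over the 25 probes on all 6 arrays was -0.02.

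The spans of 13 members hold a probe of 1 of 10 of these genes, 5 of the members on its strand. H19 and the lincRNA probe A_30_P01026972 on its strand differed by -0.25 and -0.35, Tug1 and A_30_P01033104 by -0.27 and -0.16, and Crnde and A_30_P01032525 by between 0.09 and 0.21 and by 0.08. The Neat1 locus, whose transcript scaffolds nuclear paraspeckles, held A_30_P01029720 on the Neat1 strand at 0.35 ± 0.20 and A_30_P01030929 on the opposite strand at 0.62 ± 0.17 (unadjusted p = 0.0076). A further member on the opposite strand, A_30_P01020769, differed by 0.25 ± 0.18 (unadjusted p = 0.21). A_30_P01030929 had 4.62, 5.17 and 4.78 in NEXN-WT and 5.38, 5.52 and 5.55 in NEXN-S437E, without overlap, beside Neat1 probes at 0.47 and 0.11. Opposite to Tunar, whose own probes did not meet the signal rule, A_30_P01024567 had 5.95, 5.28 and 5.34 in NEXN-WT and 4.90, 4.60 and 4.77 in NEXN-S437E, a difference of -0.77 ± 0.21 (unadjusted p = 0.0066).

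The tissue label was borne out by cardiomyocyte markers, with 13 probes of 8 genes (Myh6, Tnnt2, Ryr2 and others) all well above background on all 6 arrays. Of these, 3 were higher in NEXN-S437E at an unadjusted limma p under 0.05. Over all probes on all 6 arrays, 7.58% were higher and 6.94% lower at that p, and the counts of the other marker lists are to be read beside these shares. In bulk tissue fewer cells of a type and less RNA per cell cannot be told apart. Of 12 such probes of fibroblast and matrix genes, 12 were lower in NEXN-S437E at an unadjusted p under 0.05, with a summed linear signal of between 115100 and 252500 in NEXN-WT and between 68600 and 76060 in NEXN-S437E. Of 4 probes of T and NK cell genes, 3 were lower, with sums of between 876 and 1651 against between 228 and 301. No probe of the endothelial, macrophage, erythrocyte or smooth muscle lists passed an unadjusted p of 0.05, none of the 4 adipocyte genes met the signal rule, and 1 probe of B and plasma cell genes was tested on all 6 arrays and was lower. The part of these cell types in the lower lincRNA probes was not tested.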

How the data were processed

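Total myocardial RNA of 3 NEXN-WT and 3 NEXN-S437E mice was labelled with Cy3 and hybridised to 1 slide of Agilent mouse arrays (1 colour). Per the labels, the intensity of each spot was extracted by the authors with Agilent Feature Extraction 10.7.1.1. The authors deposited normalized log2 values, which were identical between arrays once sorted, over 56745 rows, so they are quantile normalized. Their background setting is not given in the sources used here. Probe positions and spans are those of the deposited annotation (mm9).

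The deposited log2 values of the 22998 probes that met the signal rule were fitted with limma 3.58.1 in R 4.3.3, without covariates, and p-values were adjusted by Benjamini-Hochberg over all of them. The fit was tested on simulated data. Spots of a probe count as well above background where a share of at least 0.5 of them are. The members, lists and tests were chosen with earlier results of these data known. Named were members past an adjusted p of 0.05, called members without overlap between groups (up to 10 a direction), the 3 largest bounds a direction, members of overlapping spans, gene probes inside or within 50 kb, and a fixed list of long noncoding RNAs. A bound sets the bright group's mean against the dim group's mean of, per array, the higher of the lowest signal well above background and the probe's own. Precision is limited by the number of arrays. Columns of signal that the authors did not normalize served as alternatives. Arrays of slide row 1 held 3 NEXN-WT and 1 NEXN-S437E, those of row 2 held 2 NEXN-S437E.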

Additional observations from a re-analysis of the deposited data

How the results depend on the processing

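None of the fold changes of the 10 lincRNA probes named by rule changed sign under any alternative. The 4 higher and 2 lower members became 0 and 0 with normexp background correction and an offset of 50, changed together. There 0 of the 6 called probes reached 2-fold, though each kept an unadjusted limma p under 0.05. The median difference of the set was 0.107 in that setting. On the deposited values, a 1.5-fold threshold in place of 2-fold gave 65 higher and 12 lower members. No share of all probes was taken at 1.5-fold, so these counts cannot be set against a background. At the 2-fold threshold, lower members numbered 1 when arrays were scaled on the 75th percentile of all probes. That scaling moved the median of all probes from 0.04 to 0.10. With the slide row as a block, 5 members were lower and 3 of the 6 called probes were still called. At an unadjusted limma p under 0.05, 71 members were higher (8.29%, against 3.63% of all probes) and 19 lower (2.22%, against 4.65%). The group difference in that fit rests on slide row 1, since row 2 held no NEXN-WT array. Within slide row 1 alone, which holds 1 NEXN-S437E array, these were 5, 3 and 48, with 12 lower at that p, in a fit that assumes the lone array varies like the others, so these counts do not show how far the calls depend on slide row. The count past an adjusted p of 0.05 was 1 with either 75th percentile scaling and with an intensity trend. With array weights it was 55 of the 856 members, 46 higher and 9 lower, where 1217 of all 22998 probes passed. At an unadjusted limma p under 0.05 that fit had 221 members higher (25.8%, against 13.3% of all probes) and 46 lower (5.37%, against 11.7%). In it 1 known long noncoding RNA probe passed the adjusted p. Leaving out 1 array at a time gave 3 to 7 higher and 0 to 4 lower members, 0 to 1 past the adjusted p, 2 to 6 called probes, and a median of 0.13 to 0.26. At an unadjusted limma p under 0.05, 90 to 182 members were higher, or 10.5% to 21.3%, against 3.96% to 9.54% of all probes. At that p 12 to 33 were lower, or 1.40% to 3.86%, against 4.39% to 8.37%. Without NEXN-WT replicate 1, 0 of the 856 members on all 6 arrays were lower at the 2-fold and unadjusted p thresholds, where 15 were at the unadjusted p alone. Gene probes within 10 kb in place of inside the span gave matching signs for 169 of 309 members. The causes were not tested. Same-numbered arrays of the groups deviated with correlations of -0.14, -0.03 and -0.16, which gave no sign that the numbers pair the mice. With 3 arrays in a group, such correlations cannot exclude a pairing. With the replicate block 4 members were higher, 2 lower and 0 past the adjusted p. At an unadjusted limma p under 0.05, 131 members were higher (15.3%, against 5.77% of all probes) and 17 lower (1.99%, against 5.93%). The unadjusted counts, the median and the known list were put through these alternatives after the data had been seen. The dim signal of lincRNA probes limits what can be measured, since 3105 of 4460 were not well above background on any array.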
